A study of Mus musculus with 14 samples.

Results

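The 38 genes described here make, sense and export cholesterol and fatty acids. They were taken by gene symbol from a table of 46959 gene entries in which RNA sequencing counted transcripts in 14 libraries of Eµ-Myc mouse lymphoma, and 38 of the 38 passed the filter on low counts, as did 17450 entries in all. The genes fall into sterol synthesis (18 genes), sterol sensing and control (6), fatty acid synthesis (9) and efflux with the liver X receptors (5).

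The Eµ-Myc transgene places Myc under the immunoglobulin heavy chain enhancer, so that B-lineage cells turn malignant. The ASNase lymphoma (1 library) and the vehicle lymphoma (1 library) were lymph node tumours that line 506 formed in wild-type C57BL/6 mice. From day 7 after the cells were injected until the disease endpoint, the first mouse received ASNase, which is the asparagine-degrading enzyme L-asparaginase, and the second received 0.9% NaCl. The cultured lines (12 libraries) each came from a different transgenic mouse, numbered 115, 136, 309, 504, 505, 506, 517, 524, 549, 649, 688 and 801. They grew untreated for 24 h with 10% serum and 0.37 mM added L-asparagine. All 14 samples are labelled malignant B cells of WT genotype, a label that stands beside the transgene, which lines and tumours share. Each line and each treatment is 1 library, both tumours descend from the same line, and the host mice keep their own lymph node, stromal and immune cells.

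Cells regulate cholesterol through SREBP proteins, the transcription factors that Srebf1 and Srebf2 encode. When membranes are poor in sterol, the escort protein Scap carries SREBP out of the endoplasmic reticulum to be cut, and the released part switches on genes of sterol and fatty acid synthesis. When sterol is plentiful, Insig proteins hold Scap back, and the liver X receptors, which bind oxidised sterols, switch on genes of cholesterol export. Dividing lymphocytes need new membrane and draw on both synthesis and uptake.

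Promoter sequence could be matched for 30 of the 38 genes in RefSeq (build GRCm38.p6), read over the 250 bases before the transcription start. Searched on both strands, the sterol regulatory element TCACCCCAC was found in 1 of the 30, Hmgcs1, against 0.555% of the 27025 genes with a promoter in the same table. The shorter core CACNCCAC, which any match of the longer element also contains, was found in 3 of the 30 genes (10%), against 6.05% of genes. The CCAAT box, bound by NF-Y, a known partner of SREBP, was found in 21 of the 30 (70%), against 37.5% of genes. It was present in 14 of 15 sterol synthesis genes, 4 of 5 control genes, 2 of 6 fatty acid genes and 1 of 4 efflux genes. The GC box GGGCGG was found in 24 of the 30 (80%), against 35.4% of genes, and the E-box CACGTG in 6 of the 30 (20%), against 6.86%. A match is a string of letters and not a measured binding site. These 5 promoters are shown because the results turn on their genes. Hmgcs1 and Acat2 begin the sterol pathway, Insig1 and Insig2 are paralogues of which edgeR called only Insig1, and Fads2 had the steepest difference. Each reads 5′ to 3′ on the gene's own strand, with capitals for CACNCCAC or CCAAT on either strand. Hmgcs1 lies at chr13:119690101-119690350 (plus strand), Acat2 at chr17:12960726-12960975 (minus), Insig1 at chr5:28071162-28071411 (plus), Insig2 at chr1:121332590-121332839 (minus, the first of its 3 listed starts) and Fads2 at chr19:10101504-10101753 (minus).
Hmgcs1: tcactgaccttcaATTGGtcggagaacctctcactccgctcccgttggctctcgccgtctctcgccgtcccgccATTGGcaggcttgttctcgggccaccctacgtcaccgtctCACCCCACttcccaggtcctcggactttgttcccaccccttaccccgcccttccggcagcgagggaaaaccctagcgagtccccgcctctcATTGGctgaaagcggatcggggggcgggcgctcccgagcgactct
Acat2: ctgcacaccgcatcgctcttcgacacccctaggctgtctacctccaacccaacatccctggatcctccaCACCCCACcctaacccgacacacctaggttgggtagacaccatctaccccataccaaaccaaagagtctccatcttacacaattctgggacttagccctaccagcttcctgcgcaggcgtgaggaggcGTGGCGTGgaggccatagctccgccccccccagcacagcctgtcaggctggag
Insig1: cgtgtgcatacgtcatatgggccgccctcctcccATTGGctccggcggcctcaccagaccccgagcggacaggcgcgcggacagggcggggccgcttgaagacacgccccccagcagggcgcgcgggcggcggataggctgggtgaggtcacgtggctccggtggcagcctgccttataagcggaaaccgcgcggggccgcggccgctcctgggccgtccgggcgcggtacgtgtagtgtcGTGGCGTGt
Insig2: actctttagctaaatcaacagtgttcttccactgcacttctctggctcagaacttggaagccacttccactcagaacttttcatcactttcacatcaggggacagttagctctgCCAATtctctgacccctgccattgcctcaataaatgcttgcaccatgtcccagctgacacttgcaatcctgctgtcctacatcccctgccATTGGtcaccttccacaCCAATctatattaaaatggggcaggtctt
Fads2: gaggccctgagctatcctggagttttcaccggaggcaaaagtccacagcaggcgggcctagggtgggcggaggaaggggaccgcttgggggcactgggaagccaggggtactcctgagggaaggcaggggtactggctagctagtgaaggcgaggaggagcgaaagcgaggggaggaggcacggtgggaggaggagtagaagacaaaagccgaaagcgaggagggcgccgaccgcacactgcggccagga

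In the Hmgcs1 promoter the capitals are a CACNCCAC match beginning 136 bases before the start and 3 CCAAT boxes, all on the minus strand. Acat2 has CACNCCAC on both strands, 181 and 53 bases before the start. Insig1 has a CACNCCAC match beginning 9 bases and a CCAAT box 216 bases before the start. Starts here are those of RefSeq, and for Insig1 and Acat2 this start lies inside the gene as counted. Insig2 has 3 CCAAT boxes and no CACNCCAC in this window, and Fads2 has neither.

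Sequencing depth was even, with 25690935 counts in the ASNase lymphoma, 27715832 in the vehicle lymphoma and 24597230 to 32614751 in the lines. Levels are given in CPM (counts per 1e6 counts of the library) after TMM scaling. B-cell markers were present in the tumours as in the lines. The summed level of 10 B-cell markers was 3521 CPM in the ASNase lymphoma and 4638 CPM in the vehicle lymphoma, against 2465 to 4078 CPM in the lines, and edgeR called 0 of the 10 markers. Transcripts of host cells stood beside them. Many markers of these cells passed the filter through the lymphomas alone, so they are given by level. The summed level of 12 macrophage markers was 768 CPM (ASNase lymphoma) and 374 CPM (vehicle lymphoma), against 2.84 to 64.6 CPM in the lines, where C1qa, C1qb, Cd163 and Marco had no count. The sums of 9 fibroblast markers were 2382 CPM and 959 CPM in the ASNase and vehicle lymphomas, against at most 2.04 CPM in the lines. Adipocytes store fat, and the sum of 8 of their markers was 37.8 and 43.1 CPM in the ASNase and vehicle lymphomas, of which Fabp4 made 32.4 and 37.6 CPM, against 0 to 32.5 CPM in the lines. Over 7 endothelial markers the sums were 175 and 262 CPM in the ASNase and vehicle lymphomas, against 31.3 to 167 CPM in the lines. Over 8 T-cell markers they were 16.1 and 67.3 CPM in the ASNase and vehicle lymphomas, against 0.725 to 40.1 CPM in the lines, and over 7 neutrophil markers 12.5 and 21.9 CPM, against at most 0.167 CPM. Every host marker sum was higher in the vehicle lymphoma than in any line, and in the ASNase lymphoma so was every one but that of T cells. The adipocyte and endothelial sums rest largely on genes that cultured lines also express. Fabp4 had 31.4 CPM in line 506, the highest line. Pecam1 had 116 and 156 CPM in the ASNase and vehicle lymphomas, against 26.4 to 155 CPM in the lines. The endothelial marker Cdh5 had 24.5 and 44.6 CPM, against at most 2.78 CPM in the lines.

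The first comparison set the tumours against the cells in culture. Genes of cholesterol and fatty acid synthesis fell together in the lymphomas, most of them below every one of the 12 lines, while the receptor gene Nr1h3 rose. The edgeR quasi-likelihood test, with Benjamini-Hochberg adjustment over all genes, called 26 of the 38 genes lower, beside 11.1% of all 17450 genes tested, and 3 higher, beside 13.4%. All 38 reached the filter's level, 0.336 CPM before scaling, in at least 1 line, as did 15675 genes in all, of which 12.3% were called lower and 7.56% higher, while 1775 genes passed through the lymphomas alone. Sterol synthesis had 14 of 18 genes lower and 1 higher, with a median log2 fold change of -2.06. Fatty acid synthesis had 8 of 9 lower (median -1.18), control genes 4 of 6 lower (median -1.18), and efflux genes 0 of 5 lower and 2 higher (median 1.21). The median over all genes tested was -0.01, and differences between the roles were not tested. Both lymphomas lay below all 12 lines for 25 of the 38 genes, beside 12.5% of all genes, and above all 12 for 3, beside 19%. In bulk samples such as these, fewer cells of a type and less RNA per cell cannot be told apart.

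**Figure D1:**
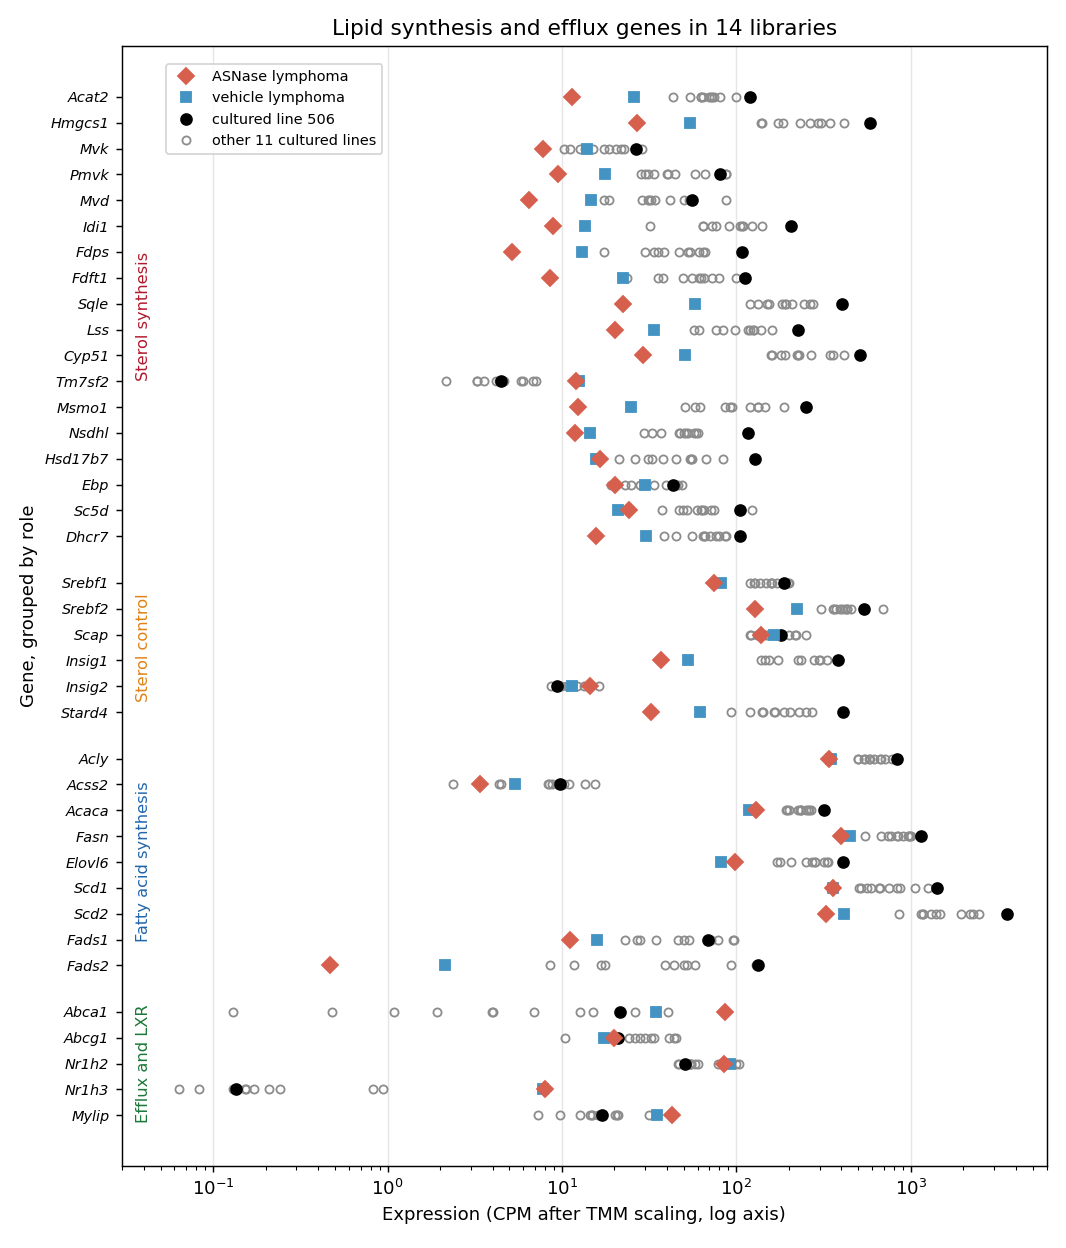
Expression of each of the 38 genes (CPM after TMM scaling, log axis) in the ASNase lymphoma, the vehicle lymphoma, cultured line 506 and the other 11 cultured lines, grouped by role. Most sterol and fatty acid genes have both tumours to the left of all 12 lines and line 506 at or near the right end, whereas Nr1h3, Tm7sf2 and Mylip have both tumours to the right.

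The calls rest on both tumours together, because the spread in the test comes from the lines alone and each tumour is treated as an independent sample, although both descend from line 506. When the ASNase lymphoma was the only tumour in the fit, Hmgcs1, Pmvk, Mvd, Sc5d, Acly, Elovl6, Scd1 and Fads1 were no longer called lower. When the vehicle lymphoma was the only tumour in the fit, only Acat2, Idi1, Cyp51, Srebf1, Insig1 and Acaca were still called lower. Nr1h3 was called higher in each of these fits, while Tm7sf2 and Mylip were not. Fewer of all genes were also called in each of these fits than with both tumours. No gene changed the sign of its fold change in either fit. With the ASNase lymphoma alone the median log2 fold change was -2.58 over sterol genes, -1.37 over fatty acid genes and -0.03 over all genes. With the vehicle lymphoma alone these medians were -1.73, -1.18 and -0.02. The counts over all genes moved with the scaling. There edgeR called 1929 lower and 2340 higher with TMM, 1694 and 2462 with RLE, 943 and 2942 with total counts, 1019 and 2957 with TMM on genes of the lines, and 2248 and 1492 with libraries scaled on B-cell markers. In the 4 other scalings the median over all genes was 0.04, 0.22, 0.21 and -0.49, and the sterol median was -2.01, -1.83, -1.84 and -2.59. A change of the test as well gave 2066 and 3987 with limma voom, at medians of 0.21 over all genes and -1.98 over sterol genes. DESeq2 with its own size factors gave 2295 and 1814, at medians of 0.04 and -2.01.

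The mevalonate arm turns acetyl-CoA into farnesyl diphosphate, the building block of sterols, and 6 of its 7 genes fell. Acat2, which joins acetyl-CoA units, had 11.5 CPM in the ASNase lymphoma and 25.8 CPM in the vehicle lymphoma, against 43.3 to 119 CPM in the lines (median 70.7). Both tumours lay below every line (log2 fold change -2.08, SE 0.33, edgeR adjusted p = 0.000803), and a near-identical copy, Acat3, at 1.87 and 3.22 CPM in the ASNase and vehicle lymphomas and 7.03 to 18.7 CPM in the lines, makes the division of reads uncertain. Hmgcs1, which makes HMG-CoA, had 26.8 and 54.1 CPM in the ASNase and vehicle lymphomas, against 53.7 to 582 CPM in the lines (median 248). Here the vehicle lymphoma overlapped the lines by a narrow margin, since 53.7 CPM was the level of line 801 (log2 fold change -2.78, SE 0.74, edgeR adjusted p = 0.0170). The Hmgcs1 call was lost with either tumour alone (edgeR adjusted p = 0.0669 for the ASNase lymphoma and 0.161 for the vehicle lymphoma).

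Idi1, which isomerises isopentenyl diphosphate, had 8.85 CPM in the ASNase lymphoma and 13.6 CPM in the vehicle lymphoma, against 31.8 to 205 CPM in the lines (median 97.9). This was the steepest fall in sterol synthesis (log2 fold change -3.18, SE 0.60, edgeR adjusted p = 0.00246). Fdps, which makes farnesyl diphosphate, had 5.15 and 13.0 CPM in the ASNase and vehicle lymphomas, against 17.4 to 107 CPM in the lines (median 49.9). The kinase Pmvk and the decarboxylase Mvd fell by similar amounts, with log2 fold changes of -2.01 and -2.04. Mevalonate kinase, Mvk, did not pass the test, with 7.82 and 13.9 CPM in the ASNase and vehicle lymphomas, against 10.3 to 28.7 CPM in the lines (edgeR adjusted p = 0.147). For Mvk only the ASNase lymphoma lay below every line.

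From squalene onwards 8 of 11 genes fell and 1 rose. Sqle, the squalene epoxidase that acts as a slow step of the pathway, had 22.4 CPM in the ASNase lymphoma and 58.3 CPM in the vehicle lymphoma, against 120.1 to 405 CPM in the lines (median 192). The groups did not overlap (log2 fold change -2.54, SE 0.45, edgeR adjusted p = 0.00152). Cyp51, the demethylase of lanosterol, had 29.0 and 50.8 CPM in the ASNase and vehicle lymphomas, against 158 to 511 CPM in the lines (median 227). Msmo1, which removes further methyl groups, had 12.3 and 24.9 CPM in the ASNase and vehicle lymphomas, against 50.8 to 249 CPM in the lines (median 107). Fdft1 (squalene synthase), Lss (lanosterol synthase), Nsdhl, Sc5d and Dhcr7, which act before or after these steps, also lay below every line in both tumours, with log2 fold changes from -1.59 (Sc5d) to -2.18 (Fdft1). Fdft1 overlaps Ctsb and Cyp51 overlaps Akap9 on the opposite strand. Whether counting used strand is not given in the sources used here, so reads of such partners cannot be told apart.

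Tm7sf2, a sterol reductase, went the other way, with 12.1 CPM in the ASNase lymphoma and 12.6 CPM in the vehicle lymphoma, against 2.15 to 7.15 CPM in the lines (median 4.41). Both tumours lay above every line (log2 fold change 1.41, SE 0.35, edgeR adjusted p = 0.0120). The call was lost with either tumour alone and when libraries were scaled on B-cell markers, and Tm7sf2 overlaps Vps51 on the same strand, which leaves its counts uncertain. Ebp, a sterol isomerase, stayed within the range of the lines, at 20.2 and 29.9 CPM in the ASNase and vehicle lymphomas, against 19.0 to 48.8 CPM in the lines (edgeR adjusted p = 0.371). Hsd17b7, a reductase that works with Msmo1 and Nsdhl, lay below every line in both tumours but missed the threshold (log2 fold change -1.72, SE 0.61, edgeR adjusted p = 0.0577). Its adjusted p ran from 0.0120 to 0.235 over 21 alternatives and passed in 5, namely DESeq2, scaling on B-cell markers, and edgeR without line 309, 506 or 801.

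Among the genes that sense and move sterol, both SREBP genes fell, as did Insig1 but not its paralogue Insig2, and the difference between the paralogues was not tested. Srebf2, whose product favours cholesterol genes, had 128 CPM in the ASNase lymphoma and 224 CPM in the vehicle lymphoma, against 306 to 689 CPM in the lines (median 414). Neither tumour reached the lowest line (log2 fold change -1.35, SE 0.26, edgeR adjusted p = 0.00249). Srebf1, whose product favours fatty acid genes, had 74.8 and 82.1 CPM in the ASNase and vehicle lymphomas, against 158 ± 27.6 CPM in the lines (SD, n = 12), of which the lowest was at 120.3 CPM in line 115 (log2 fold change -1.01, SE 0.21, edgeR adjusted p = 0.00383). Srebf1 overlaps Rai1 on the opposite strand, a gene at 125 CPM in the median line. Scap, the escort of both proteins, did not pass, with 139 and 165 CPM in the ASNase and vehicle lymphomas, against 119 to 252 CPM in the lines (edgeR adjusted p = 0.633).

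Insig1, itself an SREBP target, had 36.9 CPM in the ASNase lymphoma and 53.0 CPM in the vehicle lymphoma, against 138 to 387 CPM in the lines (median 256). Its fall (log2 fold change -2.52, SE 0.46, edgeR adjusted p = 0.00195) was also called with either tumour alone. Insig2, which is known in mouse liver to be controlled apart from Insig1, had 14.6 and 11.5 CPM in the ASNase and vehicle lymphomas, against 8.66 to 16.3 CPM in the lines (median 10.7). Both tumours lay inside the range of the lines (log2 fold change 0.18, SE 0.24, edgeR adjusted p = 0.640). Per kilobase of transcript, Insig1 exceeded Insig2 2.84-fold in the ASNase lymphoma and 5.19-fold in the vehicle lymphoma, against 11.5-fold to 50.2-fold within the lines and 46.0-fold in line 506. Such a ratio within a library does not depend on its scaling. Stard4, which carries cholesterol between membranes, had 32.4 and 61.9 CPM in the ASNase and vehicle lymphomas, against 93.8 to 410.3 CPM in the lines (log2 fold change -2.15, SE 0.50, edgeR adjusted p = 0.00776).

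The fatty acid chain is built by the products of 5 genes, of which 4 fell, and their median log2 fold change was -1.03, while all 4 desaturase genes fell, with a median of -2.16. Fasn, the synthase that builds palmitate, had 398 CPM in the ASNase lymphoma and 449 CPM in the vehicle lymphoma, against 548 to 1138 CPM in the lines (median 870.0). The groups did not overlap (log2 fold change -1.03, SE 0.23, edgeR adjusted p = 0.00645). Acly, which frees acetyl-CoA from citrate, had 339 and 347 CPM in the ASNase and vehicle lymphomas, against 500.3 to 829 CPM in the lines (log2 fold change -0.87, SE 0.20, edgeR adjusted p = 0.00713). Acaca, which makes malonyl-CoA, had 130.2 and 118 CPM in the ASNase and vehicle lymphomas, against 192 to 317 CPM in the lines. Its fall (log2 fold change -0.95, SE 0.18, edgeR adjusted p = 0.00207) was the only fall among fatty acid genes called with the vehicle lymphoma alone. Elovl6, which lengthens palmitate, had 98.5 and 81.7 CPM in the ASNase and vehicle lymphomas, against 98.3 to 407 CPM in the lines, where line 524 stood with the tumours. Acss2, which makes acetyl-CoA from acetate, did not pass, at 3.41 and 5.38 CPM in the ASNase and vehicle lymphomas, against 2.36 to 15.6 CPM in the lines (edgeR adjusted p = 0.206), and overlaps Gss on the opposite strand.

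Desaturases put double bonds into fatty acids. Their 4 genes form 2 neighbouring pairs on chromosome 19 of mm10, Fads2 at chr19:10064164-10101503 (minus strand) with Fads1 at chr19:10182888-10196870 (plus), and Scd2 at chr19:44293676-44306864 (plus) with Scd1 at chr19:44394451-44407709 (minus). Scd2 had 326 CPM in the ASNase lymphoma and 416 CPM in the vehicle lymphoma, against 854 to 3567 CPM in the lines (median 1433), a log2 fold change of -2.24 (SE 0.51, edgeR adjusted p = 0.00737). Scd1 had 356 CPM in both lymphomas, against 507 to 1414 CPM in the lines (median 708). The groups did not overlap for either gene, but the Scd1 call (log2 fold change -1.18, SE 0.40, edgeR adjusted p = 0.0455) was close to the threshold and was lost in 11 of 21 alternative fits. Per kilobase, the ratio of Scd2 to Scd1 was 0.810 in the ASNase lymphoma and 1.04 in the vehicle lymphoma, against 0.922 to 2.89 across the lines and 2.24 in line 506.

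Fads2, the desaturase that starts the route to long polyunsaturated fatty acids, had 0.468 CPM in the ASNase lymphoma and 2.13 CPM in the vehicle lymphoma, against 8.55 to 132 CPM in the lines (median 47.1). In counts these tumour levels were 14 and 66 reads, against 3897 in line 506. This was the steepest fall among the 38 genes (log2 fold change -5.76, SE 1.34, edgeR adjusted p = 0.00805), though it was lost with the vehicle lymphoma alone (edgeR adjusted p = 0.102) and in limma voom (adjusted p = 0.0684). Its neighbour Fads1, which acts later on the same route, had 11.1 and 15.9 CPM in the ASNase and vehicle lymphomas, against 23.0 to 97.5 CPM in the lines (log2 fold change -2.08, SE 0.59, edgeR adjusted p = 0.0230). Both Fads1 and Fads2 lay below every line, yet by unequal amounts. Per kilobase, the ratio of Fads1 to Fads2 was 10.3 in the ASNase lymphoma and 3.27 in the vehicle lymphoma, against 0.226 to 1.30 in the lines, with line 506 the lowest.

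Efflux genes did not share a direction. Nr1h3 encodes LXRα, a liver X receptor strong in macrophages, and had 7.99 CPM in the ASNase lymphoma and 7.76 CPM in the vehicle lymphoma, against 0.0634 to 0.936 CPM in the lines (median 0.154). Its rise (log2 fold change 4.84, SE 0.70, edgeR adjusted p = 0.000382) was called in all 21 alternative fits. Nr1h2, the widely expressed LXRβ, did not pass, at 85.1 and 92.5 CPM in the ASNase and vehicle lymphomas, against 46.1 to 104 CPM in the lines (edgeR adjusted p = 0.242). Abca1, which loads cholesterol onto lipid-poor apolipoprotein, had 86.5 and 34.4 CPM in the ASNase and vehicle lymphomas, against 0.131 to 40.3 CPM in the lines (median 5.45). Only the ASNase lymphoma lay above every line, and with so wide a spread among lines the log2 fold change of 2.28 (SE 1.20) was not called by edgeR (adjusted p = 0.189), though limma voom called it (adjusted p = 0.0273).

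Abcg1, which passes cholesterol to lipoprotein particles, had 19.9 and 17.5 CPM in the ASNase and vehicle lymphomas, against 10.5 to 45.3 CPM in the lines (edgeR adjusted p = 0.304). Mylip, a ubiquitin ligase that marks lipoprotein receptors for breakdown, had 42.9 and 35.0 CPM in the ASNase and vehicle lymphomas, against 7.28 to 31.4 CPM in the lines. Its rise (log2 fold change 1.21, SE 0.36, edgeR adjusted p = 0.0268) was lost with either tumour alone and under scaling on B-cell markers. The macrophage and fibroblast markers given above were high in the same 2 tumours as Nr1h3 and Mylip, and their part in these values was not tested.

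Lists of neighbouring pathways are given for comparison. Over all 17450 genes tested 11.1% were called lower and 13.4% higher. Of the 15675 that reached the filter in a line, 12.3% were lower and 7.56% higher. Among 25 other genes of sterol uptake, storage and control, edgeR called 4 lower, and none of the 23 that reached the filter in a line was called higher. The sterol carrier gene Tmem97 fell to 28.1 and 55.6 CPM in the ASNase and vehicle lymphomas, against 75.1 to 158 CPM in the lines (edgeR adjusted p = 0.00174). Cyp27a1, which oxidises cholesterol, had 2.84 and 2.25 CPM in the ASNase and vehicle lymphomas, against at most 0.181 CPM in the lines, and since it passed the filter through the lymphomas alone its test is not given. Of 21 other genes of fatty acid synthesis and activation 5 were lower and 1 higher. The acyl-CoA synthetase genes Acsl3 (log2 fold change -2.09) and Acsl4 (-1.53) fell, and Mlxip, a glucose-sensing factor, rose (0.71), with edgeR adjusted p of 0.000492, 0.00251 and 0.00198 in that order. Of 17 genes of fatty acid oxidation 2 were lower, Etfa and Ppard, and 1 higher, the carnitine carrier Slc25a20. Both counts were close to the shares over all genes that reached the filter in a line. The last list holds LXR targets and the receptor partners Rxra and Rxrb. Of its 7 genes that reached the filter in a line 3 were called higher and 0 lower. Pltp, a phospholipid transfer protein, was higher, at 13.4 and 7.63 CPM in the ASNase and vehicle lymphomas, against 0 to 1.94 CPM in the lines. Lpcat3 lay below every line without a call, at 28.3 and 33.4 CPM, against 36.0 to 104 CPM (edgeR adjusted p = 0.103). Apoc2 passed the filter through the lymphomas alone, with 9 and 8 reads in the ASNase and vehicle lymphomas.

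Most proliferation genes fell too. Of 18 such genes 15 were called lower and 0 higher, beside 12.3% and 7.56% of genes that reached the filter in a line. Their median log2 fold change was -0.96, and Mcm4 (-1.23), Bub1 (-1.22) and Rrm1 were among those called lower. Mki67 went the other way without a call (log2 fold change 0.58, edgeR adjusted p = 0.0676). It had 1489 and 1076 CPM in the ASNase and vehicle lymphomas, against 657 to 1365 CPM in the lines. The summed level of the 18 genes was 4830 CPM in the ASNase lymphoma and 4582 CPM in the vehicle lymphoma, against 6288 to 8016 CPM in the lines. The sterol synthesis median of -2.06 stands beside the proliferation median of -0.96 on the same scale. What part the proliferation genes' change had in that of the lipid genes was not tested.

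The second comparison was between the ASNase and the vehicle lymphoma, with 1 library each, no replicate check and no p-value. Ratios carry 95% exact binomial intervals that cover counting error only. Most sterol genes were lower in the ASNase lymphoma, with the interval wholly below 1 for 15 of 18, and Abca1 was higher. The share of all genes with an interval clear of 1 was not counted. Of the 9 fatty acid genes 5 had the interval wholly below 1 and 2 wholly above, and all but Fads2 stayed within 2-fold of the vehicle level. By a size rule of at least a 2-fold difference with 5 CPM or more in either library, 7 of the 37 genes that reached this level were lower, beside 1.99% of 10561 genes, and all 7 belong to sterol synthesis. They were Fdft1, Sqle, Fdps, Mvd, Acat2, Msmo1 and Hmgcs1. By the same size 1 gene was higher, Abca1, beside 2.7% of genes.

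The median log2 ratio was -0.86 over the 18 sterol genes and -0.38 over the 6 control genes. It was -0.17 over the 9 fatty acid genes and 0.18 over the 5 efflux genes. Over the 10561 genes with 5 CPM or more the median was -0.05, and over the 8 fatty acid genes at that level it was -0.10. The ASNase lymphoma was lower for 16 of the 18 sterol genes, beside 9187 of all 17450 genes tested. The exceptions above 1 were Sc5d (ratio 1.16, interval 1.04 to 1.29) and Hsd17b7 (1.06, 0.932 to 1.20), which both act after lanosterol. Sqle had a ratio of 0.385 (0.352 to 0.421) and Fdft1 of 0.378 (0.326 to 0.436), the lowest in sterol synthesis. Among control genes Stard4 (0.523, 0.484 to 0.565) and Srebf2 (0.573, 0.551 to 0.596) were lowest, Insig1 was at 0.697 (0.645 to 0.752), and Insig2 was higher at 1.27 (1.10 to 1.47).

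**Figure D2:**
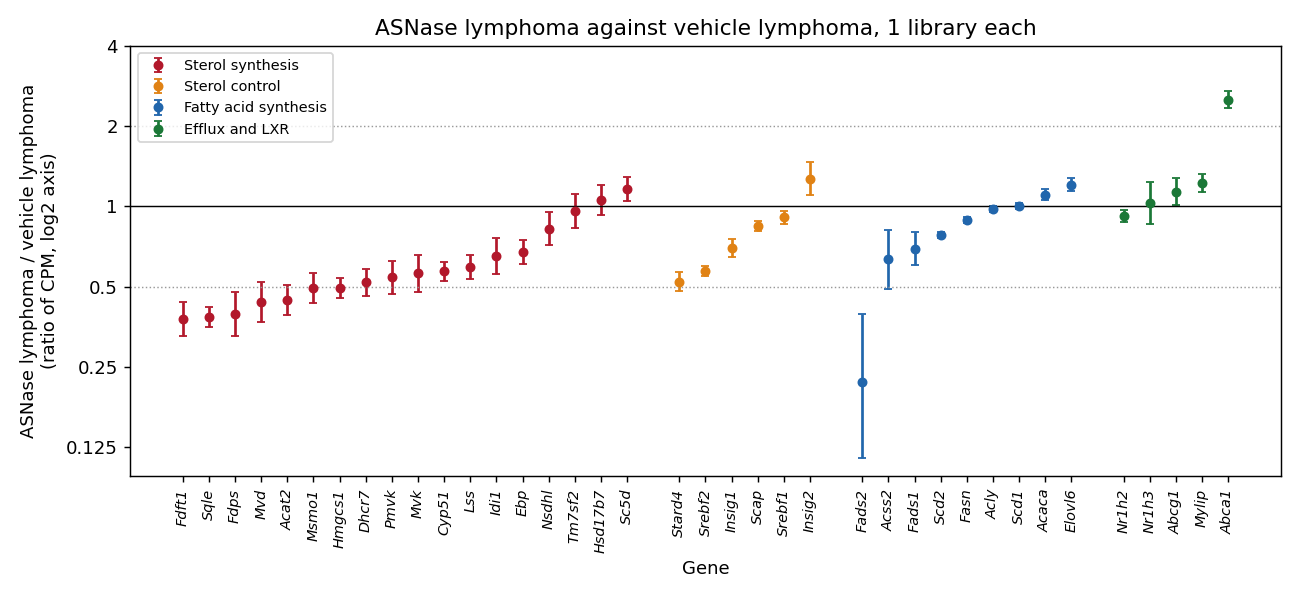
Ratio of the ASNase lymphoma to the vehicle lymphoma (CPM, log2 axis) for each gene, ordered within its role, with 95% exact binomial intervals from counting error, 1 library each. The solid line marks equal levels and the dotted lines a 2-fold difference, and 7 sterol genes lie below the lower dotted line while Abca1 lies above the upper one.

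Fatty acid genes divided. Fads2 was lower at 0.220 of the vehicle level, from 14 and 66 reads in the ASNase and vehicle lymphomas (interval 0.114 to 0.396), but was under the 5 CPM needed to be counted by size. The other lower genes were Acss2 (0.634, 0.490 to 0.815), Fads1 (0.695, 0.603 to 0.801), Scd2 (0.783, 0.763 to 0.804) and Fasn (0.888, 0.866 to 0.910). Elovl6 (1.21, 1.14 to 1.27) and Acaca (1.11, 1.06 to 1.16) were higher, and the intervals of Acly (0.976, 0.950 to 1.003) and Scd1 (1.00, 0.974 to 1.03) held 1. Abca1 was 2.51 times the vehicle level (2.34 to 2.70), while Nr1h3, whose product can activate it, was at 1.03 (0.857 to 1.24). Fasn to Hmgcs1 per kilobase, a ratio within each library, was 4.39 in the ASNase lymphoma and 2.45 in the vehicle lymphoma, against 0.577 in line 506 and up to 4.05 in the lines.

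Markers of other cells also differed in level between these 2 libraries. In the ASNase lymphoma the summed markers of fibroblasts were 2.49 times, of macrophages 2.05 times, of B cells 0.759 times and of T cells 0.239 times the vehicle level, and proliferation genes were 1.05 times. What part this had in the ratios was not tested. With both libraries scaled on the 10 B-cell markers, the median over all genes became 0.24, the sterol median -0.57 with 14 of 18 genes lower, and the fatty acid median 0.12. Under that scaling 7 genes crossed to the other side of 1, namely Acly, Fasn, Nr1h2, Nsdhl, Scap, Srebf1 and Tm7sf2. By the size rule 3 genes, all in sterol synthesis, were then lower, beside 0.763% of 10089 genes.

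Each tumour was then set against cultured line 506, from which both grew. By the same size, 30 genes were lower in the ASNase lymphoma, beside 12% of 10516 genes, and 4 were higher, beside 16.5%. In the vehicle lymphoma 27 were lower, beside 12.2% of 10493 genes, and 3 higher, beside 17.6%. The ratios share the library of line 506 and are given side by side. Over the sterol genes the median ratio was 0.0991 in the ASNase lymphoma and 0.172 in the vehicle lymphoma, and over the fatty acid genes it was 0.252 in each. Both fatty acid medians are the ratio of Scd1. Other fatty acid genes differed in either direction, as Fads1 (0.161 and 0.232) and Elovl6 (0.242 and 0.201) in the ASNase and vehicle lymphomas. Over control genes the median ratio was 0.307 and 0.424, and over efflux genes 2.54 and 1.81, in the ASNase and vehicle lymphomas. The median over all genes was 0.907 in the ASNase lymphoma and 0.923 in the vehicle lymphoma.

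Hmgcs1 was at 0.0460 of the level of line 506 in the ASNase lymphoma and at 0.0930 in the vehicle lymphoma. Idi1 was at 0.0431 and 0.0662, and Fads2 at 0.00354 and 0.0161, in the ASNase and vehicle lymphomas. The higher genes were Nr1h3, Tm7sf2 and Mylip in both tumours, with Abca1 in addition in the ASNase lymphoma at 4.00 times line 506, against 1.59 times in the vehicle lymphoma. Scap was at 0.770 and 0.912 and Insig2 at 1.56 and 1.22 of line 506 in the ASNase and vehicle lymphomas, so these genes stayed within 2-fold.

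**Figure D3:**
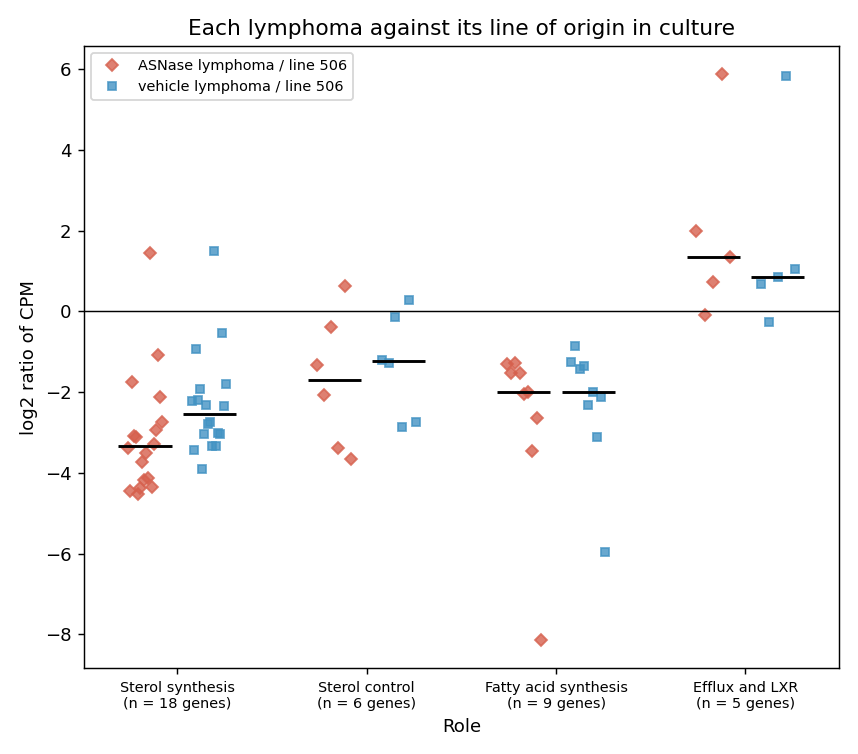
Log2 ratio of each lymphoma to cultured line 506, with 1 point per gene, grouped by role, and a bar at the median of each group; the ASNase lymphoma stands left of the vehicle lymphoma in each role. The sterol median is lower in the ASNase lymphoma (-3.34) than in the vehicle lymphoma (-2.54). The fatty acid medians are equal (-1.99) because both are the value of Scd1, and other fatty acid genes differ between the tumours.

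Line 506 was itself at the upper end of the lines, so these ratios are measured from a high level. It was the highest of the 12 lines for 20 of the 38 genes, beside 3.23% of all genes, with 12 of 18 sterol genes, 7 of 9 fatty acid genes, 1 of 6 control genes (Stard4) and 0 of 5 efflux genes. For Scd2 it had 3567 CPM, against 854 to 2447 CPM in the other lines, and for Hmgcs1 582 CPM, against 53.7 to 416 CPM. A test of this 1 library against the other 11 lines by edgeR, with the spread taken from those 11 alone, called 0 of the 38 genes and 0 of 15648 genes (0%), with 13 of the 38 and 126 of all genes at an unadjusted p under 0.05. A count of 0 here does not show that line 506 was like the others. DESeq2 called 180 genes, of which 1 was among the 38, Nsdhl. Without line 506 among the lines, edgeR called 27 of the 38 genes lower in the lymphomas, beside 1701 of 17433 genes tested. At the other end, line 801 was the lowest for 16 of the 38 genes, beside 6.95% of all genes, 12 of them in sterol synthesis, 3 in control and 1 in fatty acid synthesis. Among the 8623 genes with a mean of at least 10 CPM in the lines, which include 35 of the 38, line 506 was highest for 4.5% and line 801 lowest for 10.3%.

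Sterol genes varied together across the lines. Over 17 sterol genes with a mean of at least 10 CPM the median pairwise Pearson r of log2 CPM was 0.746, with 135 of 136 pairs above 0. It was 0.567 among 8 fatty acid genes, 0.556 between sterol and fatty acid genes, and -0.0857 between sterol and efflux genes, beside 0.00839 over all pairs of 8623 genes. These are descriptions over 12 lines that share no mouse but share the scaling of each library. Of the 8622 genes ranked by r with Hmgcs1, 16 of the first 100 were among the 38, 12 of them in sterol synthesis. Idi1 was at rank 1 (r = 0.964), Msmo1 at 3, Fdft1 at 4 and Fdps at 5. Outside the 38 genes, Gm13502 (0.901), Clptm1l (0.898) and Btf3 (0.898) were among the first 10.

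Of 12 relations tested over the 12 lines by two-sided permutation, with Benjamini-Hochberg adjustment over the 12, 7 passed by Pearson r. Hmgcs1 followed Srebf2 with r = 0.806 (p = 0.00284, adjusted p = 0.00682) and Spearman rho = 0.818 (p = 0.00205, adjusted p = 0.00920), and r was 0.824 without the 2 lines farthest from the median of Srebf2. Sqle followed Srebf2 with r = 0.740 (p = 0.00673, adjusted p = 0.0135) and rho = 0.790 (p = 0.00358, adjusted p = 0.00920), and r was 0.797 without the 2 farthest lines. Hmgcs1 followed Insig1 with r = 0.80 (p = 0.000950, adjusted p = 0.00380) and rho = 0.776 (p = 0.00460, adjusted p = 0.00920), and r was 0.819 without the 2 farthest lines. The enzyme genes Hmgcs1 and Sqle followed each other with r = 0.853 (p = 0.000530, adjusted p = 0.00318) and rho = 0.916 (p = 0.000160, adjusted p = 0.00192), and r was 0.862 without the 2 farthest lines. The neighbours Fads1 and Fads2 gave r = 0.875 (p = 0.000330, adjusted p = 0.00318) and rho = 0.804 (p = 0.00265, adjusted p = 0.00920), and r was 0.802 without the 2 farthest lines.

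Other relations joined the 2 arms of the pathway or linked a regulator to its fatty acid genes. Fasn followed Hmgcs1 with r = 0.643 (p = 0.0252, adjusted p = 0.0431) and rho = 0.776 (p = 0.00447, adjusted p = 0.00920), and r was 0.617 without the 2 farthest lines, but the adjusted p of r passed in only 4 of 14 alternatives. Fasn followed Myc, the oncogene of the model, with r = 0.807 (p = 0.00232, adjusted p = 0.00682) and rho = 0.671 (p = 0.0207, adjusted p = 0.0355), and r was 0.654 without the 2 farthest lines. That call was lost in 1 of 14 alternatives, without line 504 (r = 0.601, adjusted p = 0.0880). No relation was called between Srebf1 and Fasn (r = -0.192, p = 0.554, adjusted p = 0.604; rho = -0.126, p = 0.701, adjusted p = 0.764), and r turned to 0.357 without the 2 farthest lines. Srebf1 and Scd2 were not called either (r = -0.246, p = 0.442, adjusted p = 0.531; rho = -0.308, p = 0.330, adjusted p = 0.440), with r = -0.135 without the 2 farthest lines.

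Abca1 had no called relation with Abcg1 (r = 0.496, p = 0.0982, adjusted p = 0.147; rho = 0.399, p = 0.200, adjusted p = 0.30), with Hmgcs1 (r = -0.0222, p = 0.947, adjusted p = 0.947; rho = -0.0280, p = 0.937, adjusted p = 0.937) or with Nr1h3 (r = 0.352, p = 0.263, adjusted p = 0.351; rho = 0.175, p = 0.589, adjusted p = 0.707). Without the 2 farthest lines these r were 0.455, 0.0544 and -0.182 in the same order. Abca1 was the most variable of the 38 genes among the lines, with an SD of log2 CPM of 2.38 and levels from 0.131 CPM in line 115 to 40.3 CPM in line 524. The median SD was 0.57 over the sterol genes, 0.33 over the control genes, 0.53 over the fatty acid genes and 0.57 over the efflux genes with a mean of at least 10 CPM, against 0.32 over all 8623 such genes. The steadiest were Acaca (0.21), Acly (0.24), Srebf1 (0.25) and Insig2 (0.28).

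**Figure D4:**
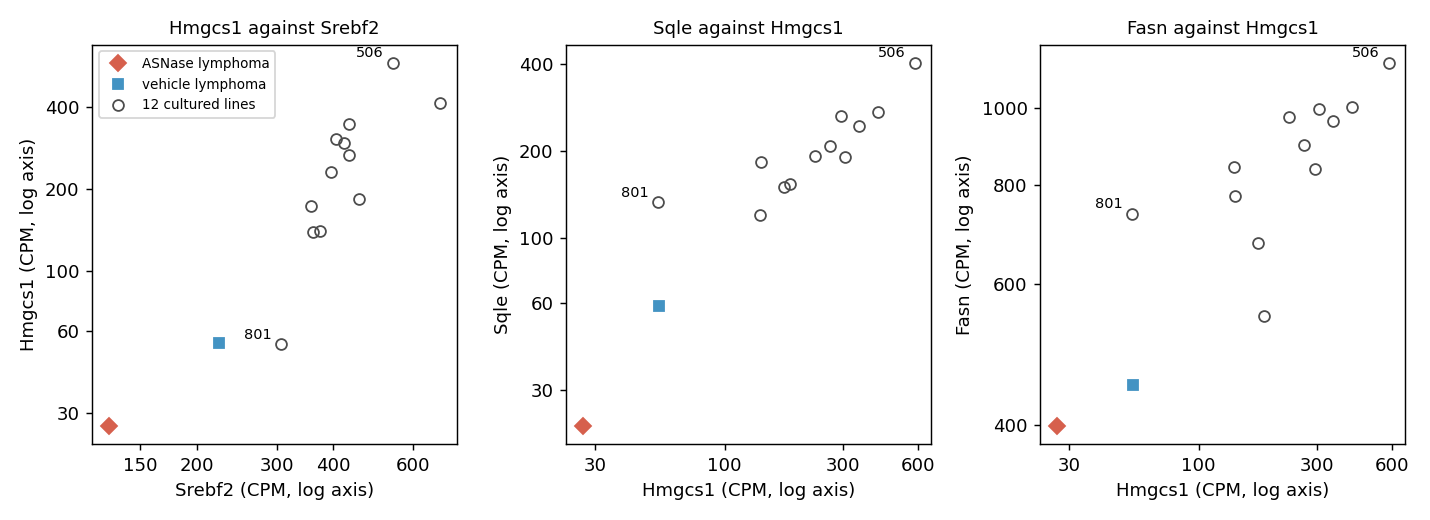
Hmgcs1 against Srebf2, Sqle against Hmgcs1 and Fasn against Hmgcs1 (CPM, log axes) in the ASNase lymphoma, the vehicle lymphoma and the 12 cultured lines, with lines 506 and 801 marked. Hmgcs1 rises with Srebf2 across the lines (r = 0.806), and both lymphomas lie at the low end of each axis except that the vehicle lymphoma and line 801 have near-equal Hmgcs1.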

How the data were processed

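All values derive from 1 deposited table of raw counts per gene for 14 libraries, which the authors made on the mm10 (GRCm38) genome. The tools named, per the submitters' processing notes, were featureCounts from Subread 1.5.0-p3 and the aligner STAR 2.4.0. Per the labels' protocols, libraries came from a stranded mRNA kit and were read as paired ends. The sources used here do not give the strand setting of the counting or how it treated reads with several matches. All columns were matched to samples by title, with 0 left over, and 100 spike-in and phage entries (0 spike-in and 5 to 534 phage counts per library) were left out.

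The 38 genes, their roles and the other gene lists (5 pathway lists of 93 genes and 7 cell type lists of 61 genes) were chosen with earlier results of these data known. Some genes that the naming rule would select are not reported here. The rule names all 38 genes, the 3 genes of smallest p past the threshold in each pathway list, and the 5 genes most like Hmgcs1 across the lines. Mki67 and Lpcat3 are named in addition, chosen after their values were seen because they went against their lists. Promoters are those of the genes with the smallest p per role and of paralogues, of which 5 are printed, chosen for the results they accompany after their values were seen.

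Counts were filtered with filterByExpr, scaled by TMM and fitted with edgeR 4.0.16 in R 4.3.3 (glmQLFit, glmQLFTest) to 3 groups, with 11 residual degrees of freedom that come from the lines. The contrast was the mean of both lymphomas minus the lines, and a fit of the lines alone set line 506 against the other 11. Adjusted p-values follow Benjamini and Hochberg over all genes, with a threshold of 0.05, and measure the spread between lines. Alternatives used limma 3.58.1 (voom), DESeq2 1.42.0, other scalings, no filter and leaving out each library. Single libraries were compared by size (2-fold or more, a log2 ratio of 1, where at least 1 of the libraries held 5 CPM). Reads carry no molecular identifiers, so intervals cover counting error only. In a library 3 counts, the limit a count of 0 allows, were 0.0897 to 0.124 CPM. Log2 CPM used a prior count of 2, and relations 100000 permutations. The edgeR fits were tested on simulated data, with 50 genes at each change. For lymphomas against lines, 60% were recovered at a log2 change of -2 and 72% at 2. At -1 and 1 the shares were 14% and 12%. For line 506 against the other lines they were 34%, 56%, 4% and 10% in the same order. A gene without a call may therefore still differ. Figures were drawn with matplotlib 3.10.9 in Python 3.11.15.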

Additional observations from a re-analysis of the deposited data

How the results depend on the processing

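For the 38 genes in lymphomas against lines, 21 alternatives each gave 798 values, of which 745 kept direction and call, 44 lost the call, 6 gained it and 3 changed sign. The sign changes were in genes with no call: Scap became 0.031 with total counts and 0.027 with TMM on genes of the lines, and Insig2 became -0.30 under scaling on B-cell markers. That scaling left 1 of the 38 genes called higher, beside 1492 of 17450 genes tested, with 0 in sterol synthesis and 1 in efflux. Over the fits that leave out 1 library, the genes called lower ranged from 6 to 27 and higher from 1 to 3, sterol genes lower from 3 to 15 and higher from 0 to 1, fatty acid genes lower from 1 to 8, control genes lower from 2 to 4, and efflux genes higher from 1 to 2. The lowest counts came without the ASNase lymphoma, which leaves 1 tumour, where fewer of all genes were called too. Between line 506 and the other lines DESeq2 called 1 of the 38 genes. Between the ASNase and vehicle lymphomas, scaling on B-cell markers left 3 genes lower by size, all in sterol synthesis, beside 0.763% of 10089 genes. A minimum of 1 CPM added 1 fatty acid gene, with 4.04% of 13645 genes lower. A log2 ratio of 0.58 gave 16 genes lower, with 13 in sterol and 1 in fatty acid synthesis, beside 8.65% of 10561 genes. Between the vehicle lymphoma and line 506, scaling on B-cell markers left 1 gene higher by size, beside 8.79% of 10126 genes. A minimum of 20 CPM gave 1 higher, beside 10.4% of 7715 genes, and a log2 ratio of 0.58 gave 5, beside 25.2% of 10493. Between the ASNase lymphoma and line 506, 2 genes were higher at a minimum of 20 CPM, beside 8.96% of 7654 genes. Leaving out 1 line, r of Abca1 with Hmgcs1 ranged from -0.195 to 0.093 and r of Srebf1 with Fasn from -0.42 to 0.18. The cause of these shifts was not tested. No paired analysis was possible because both lymphomas grew from line 506, so only 1 line has tumours, and the replicate numbers link no other samples. With 1 library per treatment, depth sets the counting intervals but gives no spread between animals.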
